A study of Mus musculus with 217 samples.

Results

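The comparison is of RNA levels between the dorsomedial striatum (DMS) and the dorsolateral striatum (DLS) of the same mice. Its members are the 51 animals with a library of each region at the same time of day, which give 102 of the 217 libraries of the series, and the 11365 genes listed in both regions' tables. All mice were adult C57BL/6J mice, an inbred strain, about 10 weeks old, with no further treatment or allele in the labels, housed on a cycle of 12 h light and 12 h dark. Of the paired animals 26 were female and 25 male, and 8, 6, 9, 9, 11 and 8 were killed 2, 6, 10, 14, 18 and 22 h after lights on (Zeitgeber time, ZT). Each library came from bilateral punches of 1 mm and was sequenced as stranded total RNA, so it holds every cell type that lay under the punch, and fewer cells of a type cannot be told apart from less RNA per cell. The nucleus accumbens, the remaining region of the series, is not used here.

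The striatum is the input nucleus of the basal ganglia, and nearly all of its neurons are spiny projection neurons of a direct pathway, which carry the dopamine receptor Drd1, and an indirect pathway, which carry Drd2. Its medial part receives association cortex and serves goal-directed action, and its lateral part receives sensorimotor cortex and serves habits and skilled movement. Some genes are graded across it: Cnr1, the cannabinoid receptor of axon terminals, is known to be high laterally, and Crym, a thyroid hormone binding protein, medially and ventrally.

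The authors normalised each region's table separately, and a library's median over the shared genes lay near 9.71 in DMS and near 9.29 in DLS on the deposited log2 scale. Each library was therefore centred on that median, so that a level below is log2 relative to the median gene of its library, and a difference is DMS minus DLS within an animal (positive where DMS is higher). Recovered depth was 35711640 to 54903803 reads in the paired DMS libraries and 29719087 to 56799764 in their DLS partners. The DMS libraries fell into a low class of 20, in which the mitochondrial ribosomal RNAs took 19.02% to 29.9% of reads, and a high class of 31, in which they took 35.3% to 52.6%. The DLS partners had a median share of 41.4%, close to the 41.5% of the high class and above the 24.7% of the low class. In the DLS library of male 13 the predicted genes over ribosomal RNA repeats took 68.4% of reads, against a median of 1.63% in DLS; without that animal 1172 and 1340 genes held as higher in DMS and in DLS, against 1187 and 1356 with it. A gene was called at an adjusted p (limma, Benjamini-Hochberg) of less than 0.05, and is said to hold where it was called in the same direction over all animals and within each class.

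Sequences upstream of the start of 4 genes are shown because these genes carry the comparison: Cnr1 and Gpr155 were among the genes highest in DLS, and Nnat and Thbs4 among those highest in DMS. Each run is the 250 bases before an annotated RefSeq start (GRCm38.p6), 5′ to 3′ on the gene's strand. Capitals mark an E-box (CACGTG) or a GC box (GGGCGG or its reverse complement). The windows are chr4:33924394-33924643 (plus strand) for Cnr1, chr2:73386481-73386730 (minus strand) for Gpr155, chr2:157559828-157560077 (plus strand) for Nnat and chr13:92794819-92795068 (minus strand) for Thbs4.
Cnr1: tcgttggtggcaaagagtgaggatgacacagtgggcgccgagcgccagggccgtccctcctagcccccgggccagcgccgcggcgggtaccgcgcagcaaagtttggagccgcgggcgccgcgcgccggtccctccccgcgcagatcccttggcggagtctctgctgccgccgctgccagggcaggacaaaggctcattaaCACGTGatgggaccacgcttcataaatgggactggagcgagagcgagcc
Gpr155: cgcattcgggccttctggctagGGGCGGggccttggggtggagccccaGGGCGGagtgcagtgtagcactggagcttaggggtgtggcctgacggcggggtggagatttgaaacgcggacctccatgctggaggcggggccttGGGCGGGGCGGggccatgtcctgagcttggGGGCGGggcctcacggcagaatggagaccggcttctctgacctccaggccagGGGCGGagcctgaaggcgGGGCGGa
Nnat: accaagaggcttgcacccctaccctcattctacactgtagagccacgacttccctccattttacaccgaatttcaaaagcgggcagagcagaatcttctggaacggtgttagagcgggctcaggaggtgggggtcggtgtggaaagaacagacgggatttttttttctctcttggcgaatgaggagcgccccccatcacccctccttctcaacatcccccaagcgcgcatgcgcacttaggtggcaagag
Thbs4: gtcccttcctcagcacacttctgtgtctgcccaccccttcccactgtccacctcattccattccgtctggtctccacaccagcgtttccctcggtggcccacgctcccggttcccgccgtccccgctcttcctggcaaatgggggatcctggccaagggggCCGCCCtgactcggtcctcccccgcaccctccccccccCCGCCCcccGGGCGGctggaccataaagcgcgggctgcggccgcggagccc
Both strands were searched, also for the cAMP response element (TGACGTCA), the AP-1 site (TGANTCA) and the TATA box (TATAAA), which none of the 4 windows holds. Of 32851 RefSeq windows of this length 6.02% hold an E-box, 32.7% a GC box, 1.55% the cAMP response element, 6.75% the AP-1 site and 12.4% the TATA box. The Cnr1 window holds 1 E-box, the Gpr155 window 7 GC boxes and the Thbs4 window 3, and the Nnat window none of the motifs. The RefSeq starts used for Cnr1 and Gpr155 lie 51 and 92 bases from the GENCODE gene starts. For Cnr1 the GENCODE start falls within the window, and the marked E-box lies just after it, inside the gene as GENCODE annotates it. Their GC content was 68.8%, 70.4%, 54.8% and 70.8% in the order printed, against a median of 52.4% over all windows.

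Both position markers went in their known directions. Cnr1 (chr4:33924593-33948831, GRCm38) ranged from 2.26 to 3.77 with a median of 3.18 in the 51 DMS libraries, and from 4.06 to 5.11 with a median of 4.55 in the 51 DLS libraries. The lowest DLS library lay above the highest DMS library, so the regions did not overlap, and every animal had more Cnr1 RNA in DLS. The difference was -1.38 ± 0.05 (SE, n = 51 animals; limma adjusted p = 1.5e-30), a fold of 2.60, and was -1.61 in the low class and -1.23 in the high class. Crym (chr7:120186380-120202111) ranged from 1.13 to 2.53 with a median of 1.95 in DMS and from 0.36 to 2.26 with a median of 1.11 in DLS. These ranges overlapped, but 48 of 51 animals were higher in DMS, and the difference of 0.74 ± 0.06 (SE, n = 51; limma adjusted p = 3.1e-16) was 0.66 in the low class and 0.79 in the high class.

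**Figure D1:**
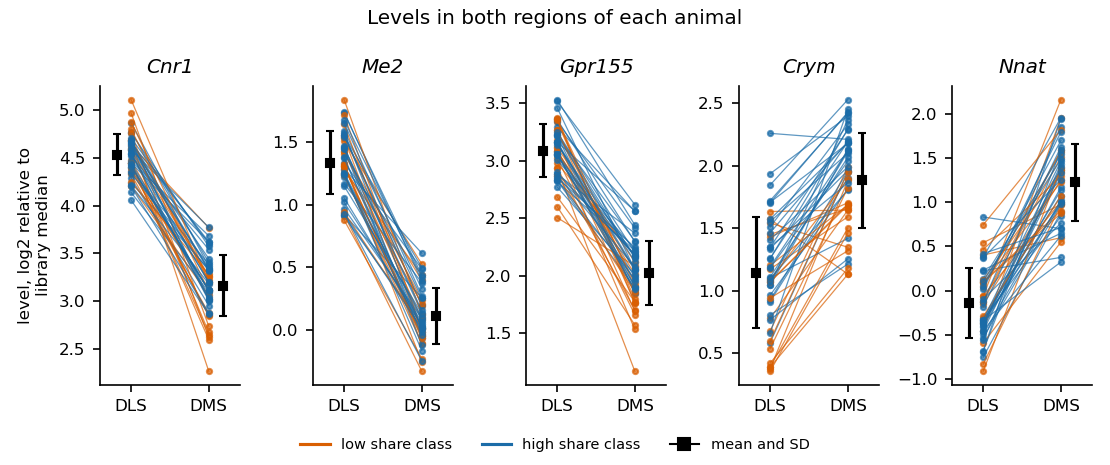
Level of 5 genes (log2 relative to the library median, vertical axes) in DLS and DMS, with one line for each of 51 animals coloured by the DMS class and squares with bars for the mean and SD of the libraries. The DMS and DLS values of Cnr1 and Me2 do not overlap, while those of Gpr155, Crym and Nnat do.

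Over all animals 7215 genes (63.5%) were called, 3346 as higher in DMS and 3869 as higher in DLS. This split rests on the centring: without it 10855 genes were higher in DMS and 101 in DLS, and after scaling to an equal sum without ribosomal RNA the counts were 5770 and 1721. In both classes 1187 (10.4%) held as higher in DMS and 1356 (11.9%) as higher in DLS, together 22.4% of the genes tested. Most of these differences were small: 166 of the genes that held (1.46% of all tested) were at least 1.5-fold higher in DMS and 70 (0.616%) at least 1.5-fold higher in DLS. The median size of the difference over all genes was 0.24 in the low class and 0.08 in the high class. With the pair's difference in ribosomal share as a covariate 743 and 872 genes held, and 87 and 35 of them were at least 1.5-fold. That fit gives the difference at equal shares. In the low class the share differences (DMS minus DLS) ran from -26.1 to -2.77 points, apart from 12.4 in male 13. Few pairs of that class lay near equal shares, so these counts do not measure the effect of ribosomal share. Of 3552 genes called in both classes 2543 went the same way and 1009 opposite ways. Across the 11365 genes the differences of the classes, which share no animal, had a Pearson correlation of 0.39, given as a description since genes are not independent replicates. The region difference of 7196 genes (63.3%) differed between the classes in a fit with sex and time, so the results below rest on genes that held in both classes unless stated otherwise. The low class held females numbered 2 to 29 and males numbered 1 to 23, and the high class females numbered 31 to 51 and, apart from male 15, males from 24 upward, so the ribosomal share cannot be told apart from anything else that went with the animals' numbers. Of the 44 gene lists, 16 had a median difference of opposite sign in the classes. Where a list median is given below, it is therefore given for each class, and lists without one are not thereby alike in the classes. The background of each list count below is the 22.4% of all genes that held.

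**Figure D2:**
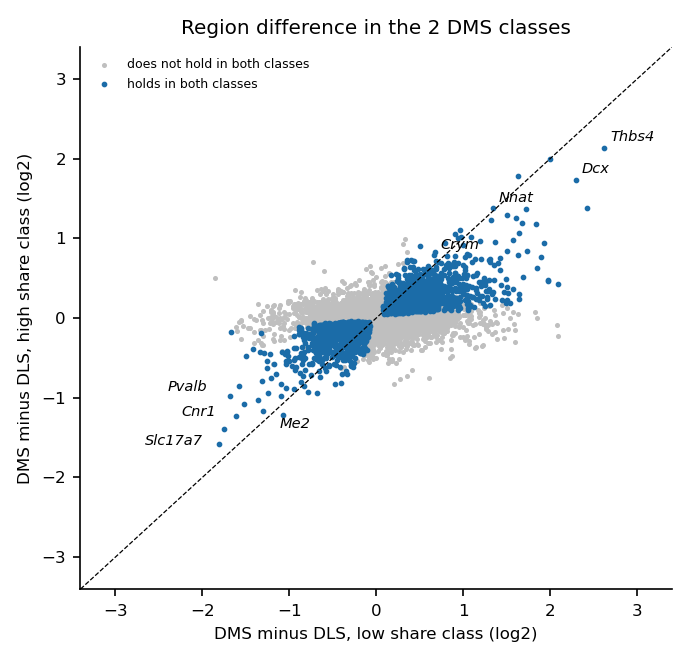
DMS minus DLS (log2) of each of 11365 genes in the animals of the low class (horizontal) and the high class (vertical), with genes that hold in both classes in blue and a dashed line of equality. The cloud is wider along the low class, and Cnr1, Me2, Crym, Nnat, Thbs4, Dcx, Slc17a7 and Pvalb lie on the same side of 0 in both.

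The genes highest in DLS included enzymes, receptors and adhesion molecules. Me2, a mitochondrial malic enzyme, ranged from -0.33 to 0.61 with a median of 0.08 in DMS and from 0.88 to 1.84 with a median of 1.33 in DLS. With Cnr1 it was the only gene of the 11365 whose regions did not overlap (0.0176%), with a difference of -1.22 ± 0.04 (SE, n = 51; limma adjusted p = 1.5e-34). Gpr155, a cholesterol-sensing membrane protein, ranged from 1.17 to 2.62 with a median of 2.05 in DMS and from 2.51 to 3.53 with a median of 3.09 in DLS. Its regions touched only at their edges, and it was higher in DLS in every animal, by a difference of -1.06 ± 0.04. Aldh1a1, which makes retinoic acid and in the striatum is best known from dopamine axons, differed by -1.15 ± 0.05, Cyp2s1, a cytochrome P450, by -1.16 ± 0.06, and Sema7a, a membrane-anchored semaphorin, by -0.95 ± 0.04, each in every animal. Pvalb, the calcium buffer of fast-spiking interneurons, ranged from -3.89 to -0.69 in DMS and from -1.85 to 0.35 in DLS. Its difference was -1.25 ± 0.08. Of 9 tested GABA interneuron genes, Pvalb among them, 2 held in each direction (44.4%, against 22.4% of all genes). The median of that list was 0.42 in the low class and -0.40 in the high class. Chrdl1, a secreted BMP antagonist, and Cdr1, whose locus gives a circular RNA that these counts cannot separate from a linear one, differed by -0.99 and -1.02. In all, 77 genes (0.678%) were higher in DLS and 36 (0.317%) higher in DMS in every one of the 51 animals.

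Slc17a7, Ccn2 and Cck completed the 12 genes highest in DLS that were named, and all of them are also cortical genes. Slc17a7, the vesicular glutamate transporter of cortical neurons, ranged from -3.95 to 3.04 with a median of -0.97 in DMS and from -3.41 to 4.33 with a median of 0.95 in DLS. The ranges overlapped almost wholly, 12 of 51 animals were higher in DMS, and the difference of -1.53 carried an SE of 0.26. Ccn2, a matrix protein of deep cortical cells, differed by -1.26 ± 0.17, and Cck, a peptide abundant in cortex, by -1.14 ± 0.17. Of 22 cortical projection neuron genes 11 were in both tables, 5 held as higher in DLS and 1 as higher in DMS (54.5% in all, against 22.4% of all genes), with a median difference of -0.13 against -0.01 over all genes. That median was 0.03 in the low class and -0.19 in the high class. Their summed level ranged from 5.75 to 6.49 in DMS and from 5.78 to 6.49 in DLS. Tbr1 and Nrn1 were among the 29 genes listed in the DLS table only, against 736 in the DMS table only, and were not tested. A subset chosen after seeing the data kept the 13 pairs with Slc17a7 below the library median in both regions, 3 of the low class and 10 of the high class. There Ccn2 (-0.30, limma adjusted p = 0.24) and Cck (-0.14, limma adjusted p = 0.61) were not called, and Cnr1 was at -1.40 and Pvalb at -1.25. The choice fixes Slc17a7 itself and bears on any gene that varies with it, and the part of cortex in the differences of Ccn2 and Cck was not tested.

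The genes highest in DMS included 3 of the list of ventricle-wall neuroblasts and precursors (Cd24a, Dcx and Sox11); the wall of the lateral ventricle borders the medial striatum. Thbs4, a thrombospondin of migrating neuroblast territory, ranged from -2.25 to 1.83 with a median of 0.36 in DMS and from -4.41 to -0.49 with a median of -2.08 in DLS. The ranges overlapped, yet all 51 animals were higher in DMS, with a difference of 2.33 ± 0.14 (SE, n = 51; limma adjusted p = 2.6e-21), or 5.02-fold. Dcx, the doublecortin of migrating neurons, ranged from -1.94 to 1.94 in DMS and from -3.02 to -1.11 in DLS, and Cd24a, a surface protein of neuroblasts and ependyma, from -2.95 to 1.00 and from -4.80 to -1.58. Both were higher in DMS in every animal, by 1.95 ± 0.11 and 1.99 ± 0.12. Sfrp1, a secreted Wnt modulator, differed by 1.79, Hist1h1b, a linker histone of dividing cells, by 1.72, and the transcription factor Sox11 by 1.44. Hmgb2, a chromatin protein of proliferating cells, was 2.83-fold higher in DMS. Islr2, Cpne6 and Celsr1, which act in axon guidance, calcium-dependent membrane binding and planar polarity, differed by 1.39, 1.38 and 1.33.

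Nnat, an imprinted gene of a small membrane proteolipid, ranged from 0.32 to 2.16 with a median of 1.25 in DMS and from -0.91 to 0.83 with a median of -0.16 in DLS. It was higher in DMS in 50 of 51 animals, and its difference of 1.36 ± 0.08 was nearly equal in the low class (1.34) and the high class (1.38).

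**Figure D3:**
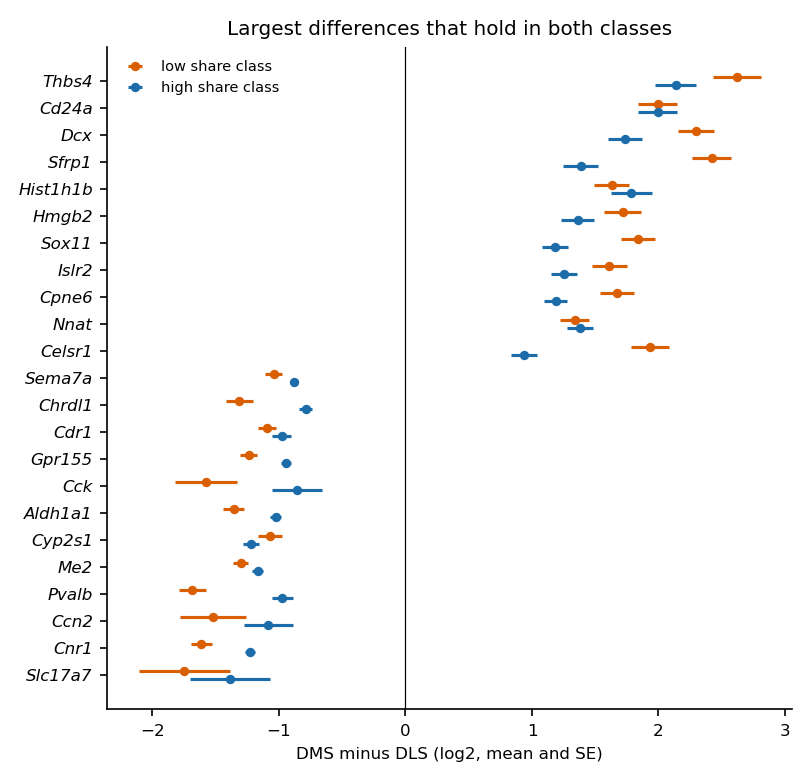
DMS minus DLS (log2, mean and SE over animals) of the named genes highest in each region among those that hold, in the 20 animals of the low class and the 31 of the high class. Celsr1 and Sfrp1 differ more in the low class (1.93 and 2.42) than in the high class (0.94 and 1.38), and Nnat and Cd24a hardly differ between them.

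Several other genes known from tissue next to the medial punch were also higher in DMS. The tables were filtered separately, with 736 genes in the DMS table only and 29 in the DLS table only, and a gene in one table only was not tested. Of 18 genes of ventricle-wall neuroblasts and precursors 10 were in both tables. Of these 70.0% held, against 22.4% of all genes: 6 as higher in DMS, Cd24a, Dcx and Sox11 among them, and 1, Tubb3, as higher in DLS. A further 7, such as Dlx1, Mki67 and Top2a, were in the DMS table only. The median difference of this list was 0.57, with 1.12 in the low class and 0.23 in the high class. Their summed level ranged from 3.74 to 5.31 in DMS and from 3.73 to 4.16 in DLS. Of 18 ependymal genes 2, Ccdc39 (0.59) and Cfap54 (1.00), were in both tables and held as higher in DMS, and 10 more, including Foxj1, the master factor of motile cilia, were in the DMS table only. Of 12 choroid plexus genes 3 were in both tables and held as higher in DMS, and Ttr, the transthyretin of choroid plexus, was in the DMS table only. Of 5 tested lateral septum genes 3 held as higher in DMS, with a median of 0.37 (0.30 in the low class and 0.44 in the high class). Of 5 tested globus pallidus genes 2 held as higher in DMS and Pvalb as higher in DLS, with a median of 0.33 (0.60 and 0.07). Enpp2, made by choroid plexus and oligodendrocytes, ranged from 2.43 to 6.02 with a median of 2.97 in DMS and from 2.28 to 4.77 with a median of 2.77 in DLS. Without the 18 pairs of high Enpp2 (above 3.3 in DMS or DLS), Thbs4 differed by 2.25, Dcx by 1.86, Nnat by 1.30 and Crym by 0.79, and the genes that held came to 765 and 930. That cut was set after seeing the data and rests on Enpp2 alone, not on genes of neuroblasts or ependyma. The part of neighbouring tissue in these or the other differences was not tested.

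**Figure D4:**
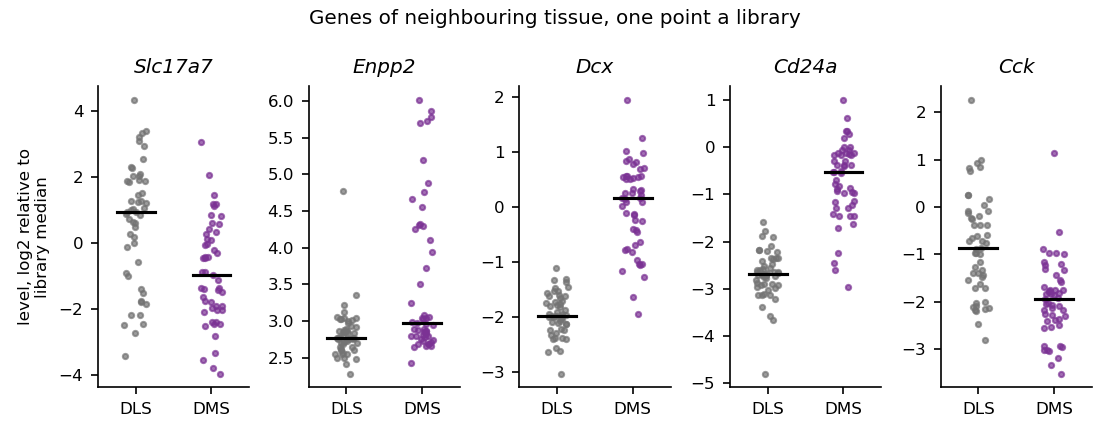
Level (log2 relative to the library median) of 5 genes known from cortex (Slc17a7, Cck), choroid plexus (Enpp2) and neuroblasts (Dcx, Cd24a), with one point for each of 51 libraries a region and a bar at the median. Slc17a7 spreads from -3.95 to 4.33 over both regions, and Enpp2 has a tail of high DMS libraries up to 6.02.

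Position genes were also split by list, and Cnr1, given above, is a member of the lateral or dorsal list. Of 9 tested genes known as medial or ventral 6 held as higher in DMS, among them Lypd1 (0.62), Zcchc12 (0.61) and Wfs1 (0.51), and Calb1 held as higher in DLS (-0.25). The median difference of this list was 0.61, with 0.59 in the low class and 0.63 in the high class. Of 11 tested genes known as lateral or dorsal 6 held as higher in DLS, and 3 went the other way: Ankrd6 (0.51), Sema3a (0.32) and Gad2 (0.16). Rgs4, an accelerator of G protein shutoff, ranged from 4.06 to 5.42 with a median of 4.90 in DMS and from 5.15 to 5.97 with a median of 5.61 in DLS. Its difference was -0.75 ± 0.04, in the direction of DLS in every animal, and Ddit4l (-0.53), Coch (-0.47) and Reln (-0.32) went with it.

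Of 20 tested genes that define the spiny neurons 4 held as higher in DLS and 1 as higher in DMS, a share near the 22.4% of all genes. Their median difference of -0.05 was 0.11 in the low class and -0.18 in the high class. Rgs7bp, a binding protein of RGS proteins, differed by -0.44, and Gad1, which makes GABA, by -0.24, while Gad2 differed by 0.16. Drd1 ranged from 2.72 to 3.80 in DMS and from 2.95 to 3.80 in DLS, and the difference of -0.24 ± 0.04 was -0.44 in the low class and -0.10 in the high class. Drd2 was called over all animals (-0.20) but not in the low class (-0.01), and Ppp1r1b, the dopamine-regulated phosphatase inhibitor, did likewise (-0.21, and -0.05 in the low class). Adora2a, the adenosine receptor of indirect-pathway neurons, held at -0.30. Tac1 and Penk, the peptide precursors of the direct and indirect pathways, held at -0.33 and -0.21. Of 9 tested direct-pathway genes 4 held as higher in DLS and 1 as higher in DMS (55.6%). Of 9 tested indirect-pathway genes 2 held as higher in DLS and 1 as higher in DMS (33.3%). In the low and high class the direct-pathway median was -0.28 and -0.01, and the indirect-pathway median -0.01 and -0.15. Without centring, Drd1, Drd2, Tac1, Penk, Adora2a and Ppp1r1b all turned sign, since that alternative moves the median of all genes by 0.40; their direction here is relative to the median gene.

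Opioid genes were measured beside genes of striosomes, the patches of the striatum rich in mu opioid receptors. Pdyn, the dynorphin precursor, ranged from 0.91 to 1.80 with a median of 1.52 in DMS and from 0.08 to 1.37 with a median of 0.66 in DLS. Every animal was higher in DMS, and the difference was 0.77 ± 0.05 (SE, n = 51; limma adjusted p = 3.9e-20), opposite in sign to Tac1 of the same neurons. Oprk1, the dynorphin receptor, and Oprm1, the mu receptor, held at 0.58 and 0.47, and Oprd1 (-0.12) and Oprl1 (-0.04) were not called. In the 13 pairs of low Slc17a7 the difference of Oprm1 was 0.40 (limma adjusted p = 0.0501). Of 11 striosome genes 4 held as higher in DMS (Pdyn, Lypd1, Tshz1 and Oprm1) and 2 as higher in DLS (Tac1 and Spon1), 54.5% in all, with a median of 0.29 (0.41 in the low class and 0.14 in the high class). Of 9 genes of the matrix, the tissue around the patches, 2 held in each direction, with Id4 (0.68) and Gda (0.62) higher in DMS and Rasgrp2 (-0.29) and Calb1 (-0.25) higher in DLS. The matrix list had a median of -0.06 in the low class and 0.14 in the high class. Of 5 tested genes of eccentric spiny neurons, a small class apart from both pathways, 3 held as higher in DMS: Pcdh8 (0.60), Tshz1 (0.54) and Cacng5 (0.54).

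Acetylcholine is released in the striatum by large local interneurons. Of 7 tested cholinergic interneuron genes 4 held as higher in DLS (57.1%) and none as higher in DMS, with a median of -0.33 (-0.34 in the low class and -0.24 in the high class). Among them were Slc5a7, the choline transporter (-0.45), Slc18a3, the vesicular acetylcholine transporter (-0.41), and Slc17a8, a vesicular glutamate transporter (-0.33). Of 8 tested muscarinic and nicotinic genes 4 held as higher in DLS. Chrm3 ranged from -2.34 to -0.89 with a median of -1.53 in DMS and from -1.77 to 0.73 with a median of -0.70 in DLS, and 50 of 51 animals were higher in DLS. Its difference was -0.91 ± 0.06, and those of Chrna7, Chrm2 and Chrm4 were -0.67, -0.49 and -0.27. Among endocannabinoid genes Faah, which breaks down anandamide, held at -0.31 with Cnr1, and Mgll, which breaks down 2-arachidonoylglycerol, at 0.31.

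Receptors and channels of the membrane differed gene by gene. Of 14 GABA receptor genes 57.1% held, against 22.4% of all genes: 6 as higher in DLS, among them Gabra4 (-0.45), and Gabrb1 (0.31) and Gabrg3 (0.23) as higher in DMS. Of 17 AMPA and NMDA receptor genes 5 held as higher in DLS, led by the auxiliary subunit Cnih3 (-0.77), and 1 as higher in DMS, 35.3% in all. Their median was 0.05 in the low class and -0.13 in the high class. Of 41 potassium channel genes 8 held in each direction, with a median of 0.16 in the low class and -0.10 in the high class. Kcna5 ranged from -0.54 to 0.66 in DMS and from -1.87 to 0.37 in DLS, was higher in DMS in every animal and differed by 0.79 ± 0.05, while Kcnc2, a channel of fast-spiking cells, differed by -0.64. Of 26 sodium and calcium channel genes 6 held as higher in DLS, led by Scn1a (-0.56) and Cacnb2 (-0.46), and 1 as higher in DMS, a share of 26.9%, near the 22.4% of all genes. The median of this list was 0.06 in the low class and -0.19 in the high class. Pde1c, a calcium-dependent phosphodiesterase, ranged from 0.40 to 1.54 with a median of 1.22 in DMS and from -0.34 to 0.84 with a median of 0.35 in DLS. It was higher in DMS in all 51 animals, by 0.80 ± 0.03, equally in the low class (0.82) and the high class (0.78).

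Guidance molecules differed in both directions. Of 36 semaphorin, plexin, netrin and slit genes 15 held as higher in DMS and 6 as higher in DLS, 58.3% in all against 22.4% of all genes, with a median of 0.16 (0.28 in the low class and 0.07 in the high class). Slit2, a repellent of growing axons, differed by 1.06, Plxnc1, a receptor of Sema7a, by 0.76, and Sema7a itself by -0.95. Of 15 Eph receptor and ephrin genes 53.3% held, 7 as higher in DMS, led by Epha8 (1.19), Efnb1 (0.55) and Efna5 (0.47), and Ephb6 (-0.46) as higher in DLS. Cadherins were mixed, with 8 of 24 held as higher in DLS, led by Cdh9 (-0.69) and Cdh18 (-0.65), and 5 as higher in DMS, led by Pcdh8 (0.60), 54.2% in all. Their median was -0.10 in the low class and 0.09 in the high class. In the retinoid pathway Aldh1a1 and the receptor Rxrg (-0.50) held as higher in DLS, and Rdh10 (0.39), which acts in retinol oxidation, as higher in DMS. Among 26 striatal transcription factors 7 held as higher in DMS, with Sox4 (1.29) and Foxp2 (0.41) after Sox11, and Meis1 (-0.65) as higher in DLS, 30.8% in all. Sox11 is also in the list of ventricle-wall neuroblasts and precursors. The median of the transcription factor list was 0.23 in the low class and 8.2e-05 in the high class.

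Of 20 tested genes induced by neuronal activity 8 held as higher in DMS and 3 as higher in DLS, 55.0% in all, with a median of 0.32 in the low class and -0.01 in the high class. Fos ranged from -4.05 to 0.53 with a median of -1.09 in DMS and from -6.19 to -0.02 with a median of -2.07 in DLS. The regions overlapped widely, 43 of 51 animals were higher in DMS, and the difference was 0.90 ± 0.11. Egr2 (0.70), Npas4 (0.60) and Btg2 (0.59) went the same way, and Homer1 (-0.31) and Ier5 (-0.24) the other. Of 19 clock genes 2 held in each direction, 21.1% in all and close to the 22.4% of all genes: Arntl, a driver of the clock (-0.36), and Rora (-0.22) as higher in DLS, and Bhlhe41 (0.18) and Npas2 (0.13) as higher in DMS. The clock list had a median of 0.01 in the low class and -0.06 in the high class.

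Of 16 astrocyte genes 5 held as higher in DLS, led by Gjb6 (-0.42), and Gfap (0.92) and Sox9 (0.40) as higher in DMS, 43.75% in all. Of 16 myelin genes 5 held as higher in DMS (31.25%), led by Mobp, whose difference was 1.06 in the low class and 0.13 in the high class. Of 15 microglia genes 2 held, both as higher in DLS, a share of 13.3% against 22.4% of all genes, and the median of -0.15 was -0.29 in the low class and -0.07 in the high class. Of 17 endothelial and mural genes 5 held as higher in DLS (29.4%), and the median of -0.16 was -0.33 in the low class and -0.12 in the high class. Genes encoded by mitochondria had a median of -0.76 in the low class and 0.13 in the high class, and red blood cell genes -0.91 and 0.04, so the medians of both turned sign between the classes. As the classes were set by mitochondrial ribosomal RNA in DMS, the mitochondrial median is not independent of the split.

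**Figure D5:**
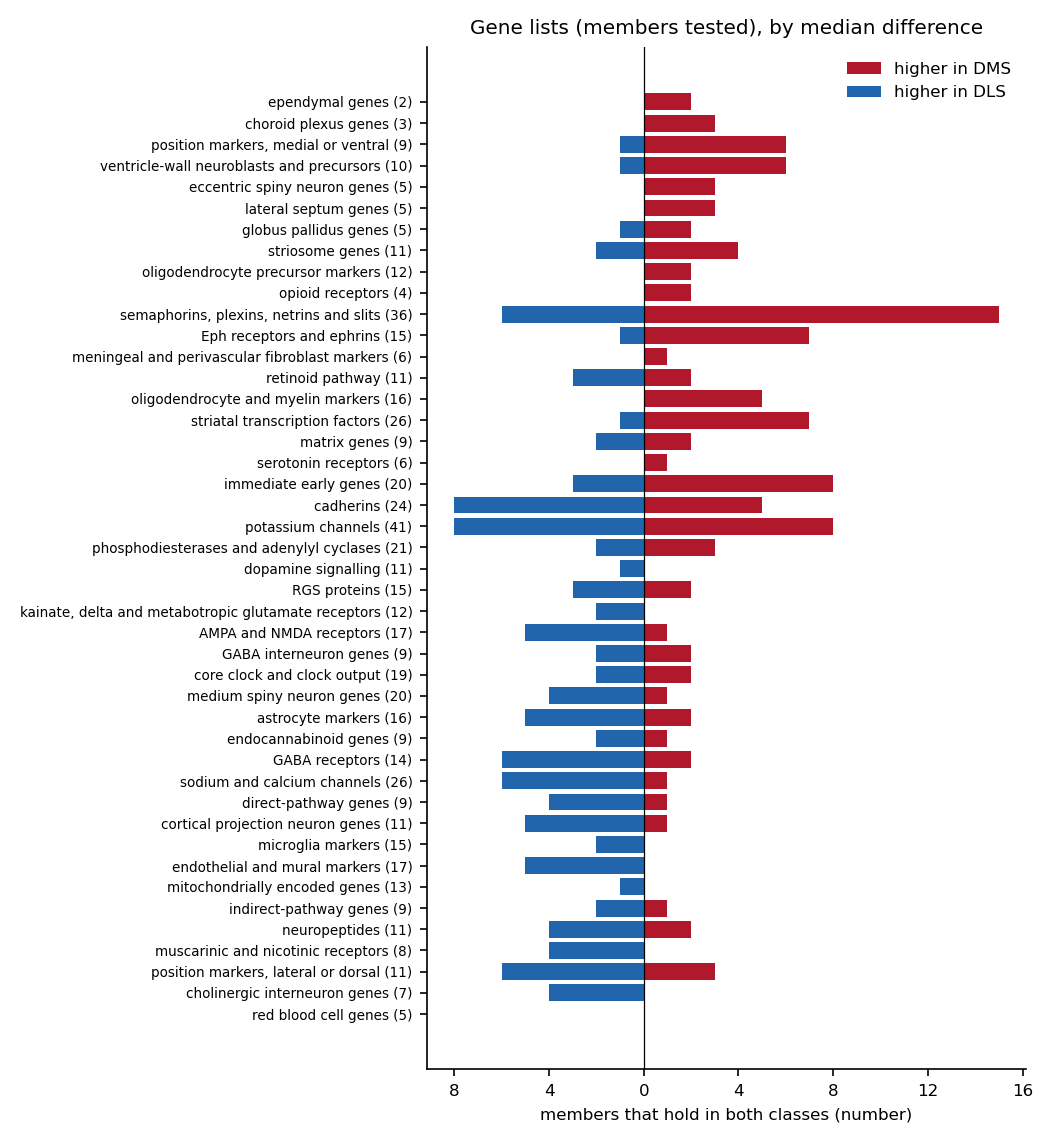
Number of members of each gene list that hold in both classes as higher in DMS (right, red) or higher in DLS (left, blue), ordered by the list's median difference, with the number tested in parentheses. Guidance genes have the longest bar to the right (15 of 36), and none of the 5 red blood cell genes holds.

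The genes whose difference varied over animals most like that of Cnr1 were Rgs4, Kcnab1, Gcnt2, Gpr155 and Ano3, with a Pearson correlation of 0.83, 0.78, 0.76, 0.76 and 0.76 in the class where it was lower (20 animals in the low class, 31 in the high class). Each of them was also higher in DLS, by -0.75, -0.34, -0.53, -1.06 and -0.45. For Crym they were Id4, Cntnap5a, Tle1, Pcdh10 and Man1a, with 0.64, 0.63, 0.62, 0.62 and 0.61. Each was higher in DMS, by 0.68, 0.43, 0.18, 0.13 and 0.40. The genes like Cnr1 or Crym were picked by the correlation itself, without regard to whether they held in both classes. These correlations are a description over pairs that share libraries and depth.

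The region difference was also tested for sex and time of day. It differed between the sexes for 1 gene (0.0088%) and between times for 5 (0.044%) in limma fits with the DMS class as a term, with 645 and 1346 genes at an unadjusted p of less than 0.05. Without the class term the counts were 1 and 0, with 433 and 520 genes at an unadjusted p of less than 0.05. Classes and times were uneven, with 6 of 8 animals in the low class at ZT22 and 2 of 11 at ZT18.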

How the data were processed

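RNA was measured by stranded total RNA sequencing in 70 DMS and 70 DLS libraries. Per the labels' protocols, the authors aligned paired reads of 75 bp with HISAT2 2.1.0 to GRCm38, counted them with HTSeq 0.10.0, filtered and normalised each region separately with DESeq2 and took logs. The submitters' processing notes also list a human build, against the mouse gene identifiers. Whether counting used the strand is not given in the sources used here, so values of overlapping genes and paralogs are uncertain. Each deposited value is the log2 of a normalised count plus 1: within 0.01 reads, 100% of low and middle values were whole reads times a library's step, and depths come from those reads. Region, library preparation and run cannot be told apart where the labels do not separate them.

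Libraries were grouped by their labels and paired by the labelled animal. Same-animal deviations from the class means correlated with a median of 0.22 over genes, above 0.1 in 44 of 51 animals. Paired differences of centred values were fitted in limma 3.58.1 (R 4.3.3) with prior spread trended on mean level, over 11365 genes, 11342 of which matched GENCODE M21. That trend replaced one on the mean difference after the first results were seen. The members, the 44 gene lists and the tests were chosen with earlier results of these data known. Differences by sex, time and class came from one fit with all 3 terms. Named genes are the 12 largest differences each way among those that held, leaving out predicted genes, Cnr1, Crym, defining spiny neuron genes, and up to 4 genes a list by adjusted p; further list members are examples picked after their values were seen. Results of some genes that the rule names are not reported here. The fit over all animals was run on simulated data with few changed genes, no classes and no link between the regions of an animal. That run does not bear on the rule of holding in both classes, or on centring where most genes differ. Alternatives were other centring, a pseudocount of 8, a level filter, voom on recovered reads, unpaired fits and subsets of animals. Plots used Python 3.11.15 and matplotlib 3.10.9. As reads carried no molecular identifiers, no counting error is given, and errors are those between animals.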

Additional observations from a re-analysis of the deposited data

Results flagged for a closer look

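The region difference of Snhg11, a long RNA that hosts small nucleolar RNAs, differed between the sexes. It averaged -0.31 in females and 0.22 in males, a male minus female difference of 0.51 ± 0.09 (SE; limma adjusted p = 0.015) in the fit with sex, time and class, and 18 of 25 males but 5 of 26 females were higher in DMS.

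The region difference of 5 genes differed between times of day by limma's F test with the class as a term. The values by time are the means of that fit at equal weight of the sexes and classes, since the classes were unevenly spread over times. Orai2, a calcium channel subunit, had an F of 9.47 (adjusted p = 0.022) and ranged from 0.002 at ZT22 to 0.66 at ZT18. Ano2, a calcium-activated chloride channel, had an F of 7.71 and was 0.77 at ZT22 and 0.09 at ZT14. Sybu, a kinesin adaptor, had an F of 7.70 and was -0.50 at ZT14 and -0.06 at ZT22. Rpl37a, a ribosomal protein, had an F of 7.68 and was -0.36 at ZT18 and 0.25 at ZT22. Prrt1, an AMPA receptor partner, had an F of 7.65 and was -0.33 at ZT22 and 0.33 at ZT18. The adjusted p of Ano2, Sybu, Rpl37a and Prrt1 was 0.045, and none of the 5 was called without the class term. Apart from Ano2, these genes also differed between the classes: the difference in the low and the high class was 0.51 and 0.03 for Orai2, -0.51 and -0.19 for Sybu, -0.48 and 0.12 for Rpl37a and 0.23 and -0.31 for Prrt1. Values at ZT10, ZT14, ZT18 and ZT22 rest on 2 animals of one of the classes.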

How the results depend on the processing

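Without centring, 10855 genes were higher in DMS and 101 in DLS, 8833 and 42 held, and 1972 and 11 of these were at least 1.5-fold, as the median gene then differed by 0.40. Drd1 (0.18), Drd2 (0.22), Tac1 (0.080), Penk (0.21), Adora2a (0.12) and Ppp1r1b (0.20) reversed. Scaling to an equal sum without ribosomal RNA gave 5770 and 1721 genes, 2183 and 538 that held, and 262 and 43 of at least 1.5-fold, so the split of calls rests on the centring. With the difference in ribosomal share as a covariate, 743 and 872 held, 87 and 35 of them at least 1.5-fold. That fit gives values at equal shares, near which few pairs of the low class lay. Females alone gave 721 and 746 that held and males alone 677 and 814. The high class alone gave 2535 genes higher in DLS. Chosen after seeing the data, leaving out pairs of high Enpp2 left 765 held in DMS, the 13 pairs of low Slc17a7 called 759 and 946 genes, and the first trend of the prior spread called 3349 and 3881. Without the class term 0 genes differed between times. The cause of these changes was not tested, and the subsets also hold fewer animals.

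Leaving out each animal in turn gave 3244 to 3422 genes higher in DMS and 3764 to 3924 in DLS, 1115 to 1226 and 1295 to 1389 that held, and 153 to 175 and 66 to 82 of at least 1.5-fold. With no replicate block, an unpaired fit of the 102 libraries called 3234 and 3739 genes and one of all 140 libraries 4045 and 4671; neither moved a count by over 1.5 times. Held counts could not be had for pairs within 10 points of ribosomal share or of low Slc17a7, which leave under 5 animals in the low class, a minimum set after seeing the data. The filter at a mean of 6 removed no gene.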
